A study of Mus musculus with 56 samples.

Results

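The genes examined here code for ion channels and transporters of epithelia: Cftr, the ENaC subunit genes Scnn1a, Scnn1b and Scnn1g, and Clcn5, Trpv6 and Ano1. They were chosen by name and found through the Ensembl row identifiers of the count table, so they are 7 of its 53379 genes. Transcripts were measured by RNA-seq of total RNA in 7 regions of the reproductive tract of male C57BL/6 mice: testis, efferent ductules, initial segment, caput epididymis, corpus epididymis, cauda epididymis and vas deferens. Each region was taken from 4 mice aged 3 months and from 4 mice aged 21 months, which gave 14 groups and 56 libraries. The groups differ by region and age, and per the study's methods both sides of the tract of a mouse were dissected together and freed of fat. All regions of one age therefore came from the same mice, but the labels do not name the mouse behind each library.

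The libraries held between 11125279 and 20561967 counts on genes, with a median of 16384049. Levels are given as CPM, the count divided by the scaled size of its library in units of 1000000 counts, either on a scale shared by all 56 libraries, which serves to compare regions, or on a scale set within the 8 libraries of a region, which serves to compare ages. Levels are compared between genes as CPM per kilobase of exon. The genes differed widely in counts, with 208098 in total for Ano1, 207642 for Clcn5, 72091 for Trpv6, 61396 for Scnn1a and 47632 for Cftr, but 2146 for Scnn1b and 802 for Scnn1g. Scnn1g had no count in 8 libraries and Trpv6 in 2, and the other genes had a count in every library.

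The labels were checked against marker genes. Summed germ cell markers ran from 7756 to 9424 CPM in the testis and reached at most 573 CPM elsewhere, and all 8 epithelium markers averaged 1 CPM or more in each of the 6 ducts, against 3 of 8 in the testis. The markers of the efferent ductules, the initial segment and the vas deferens were highest in the region of their name, whereas the caput markers were not. Over both ages their sum was 6369 to 7691 CPM in the caput, 9467 to 11734 CPM in the initial segment and 9552 to 31405 CPM in the cauda. The caput markers therefore do not tell the caput from these regions. The cauda markers overlapped with the corpus at 3 months, at 1374 to 3522 CPM in the cauda and 1685 to 2252 CPM in the corpus. The Sertoli cell list was highest in the caput, at 10039 to 17444 CPM over both ages, against 934 to 1101 CPM in the testis. Several libraries stood apart from their group. The cauda library of replicate 3 at 3 months held 9276 CPM of fibroblast and matrix markers, against 2189 to 2453 CPM in the other three, and 894 CPM of epithelium markers, against 1518 to 1582 CPM. The cauda library of replicate 2 at 21 months held 1061 CPM of epithelium markers, against 1531 to 1591 CPM. The efferent ductule libraries of replicates 2 and 3 at 21 months held 485 and 277 CPM of caput markers, against 1.40 and 4.37 CPM in the other two. The efferent ductule library of replicate 3 at 3 months held 142 CPM of germ cell markers, against 31.9 to 34.4 CPM in the other three. The vas deferens library of replicate 4 at 21 months held 10332 CPM of vas deferens markers, against 16562 to 17152 CPM, and 380 CPM of leukocyte markers, against 142 to 198 CPM. The caput library of replicate 2 at 3 months gave 49.7% of its counts to Gm42418, a gene model that overlaps ribosomal RNA sequence, against 1.27% to 36.0% in the other 55 libraries. Results that change without these libraries are given both ways.

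Epithelia of the male tract set the volume, salt and pH of the fluid around the sperm. CFTR is an apical anion channel, opened by cAMP, that passes chloride and bicarbonate, and its loss in humans is a known cause of absent vasa deferentia. ENaC is the amiloride-sensitive sodium channel of apical membranes and is assembled from an alpha (Scnn1a), a beta (Scnn1b) and a gamma (Scnn1g) subunit. ClC-5 (Clcn5) is a chloride and proton exchanger of endosomes that take up filtered or luminal protein, TRPV6 is an apical calcium channel known for removing calcium from epididymal fluid in mice, and ANO1 is a chloride channel opened by calcium that is found in secretory epithelia, smooth muscle and interstitial cells of Cajal.

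The genes lie on chromosomes 6, 7 and X of GRCm38. Cftr (ENSMUSG00000041301) spans chr6:18170687-18322768 on the plus strand, Trpv6 (ENSMUSG00000029868) chr6:41620624-41636405 on the minus strand, and Scnn1a (ENSMUSG00000030340) chr6:125320659-125344943 on the plus strand. Scnn1g (ENSMUSG00000000216, chr7:121734479-121768475) and Scnn1b (ENSMUSG00000030873, chr7:121865038-121918514) lie on the same strand with 96562 bp and 1 annotated gene, Gm44740, between them. Ano1 (ENSMUSG00000031075) spans chr7:144588549-144751974 and Clcn5 (ENSMUSG00000004317) chrX:7153810-7319358, both on the minus strand. Cftr shares 129 bp of exon with the antisense gene Gm15592. The strand setting of the counting is not given in the sources used here, so reads of this stretch may not have been told apart, and Gm15592 itself had between 0 and 38 counts per library. No other gene shares exon sequence with a member in the annotation used.

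RefSeq promoter windows, which run from 250 bases before to 50 bases after a transcription start, were found for 6 of the 7 genes in GRCm38.p6, without an entry for Scnn1a. The windows of Cftr and Trpv6 are shown because the levels of these genes ran in opposite directions from the initial segment to the corpus, and those of Scnn1b and Scnn1g because the genes lie close together and code for partners in one channel. Capitals mark matches on either strand to one of 3 motifs. These were the CCAAT box, spelled CCAAT, the TATA box, searched as the letters TATAAA, and the androgen receptor half-site, for which the letters AGAACA stood. No 2 matches overlap in these windows.
Cftr, chr6:18170437-18170736, plus strand: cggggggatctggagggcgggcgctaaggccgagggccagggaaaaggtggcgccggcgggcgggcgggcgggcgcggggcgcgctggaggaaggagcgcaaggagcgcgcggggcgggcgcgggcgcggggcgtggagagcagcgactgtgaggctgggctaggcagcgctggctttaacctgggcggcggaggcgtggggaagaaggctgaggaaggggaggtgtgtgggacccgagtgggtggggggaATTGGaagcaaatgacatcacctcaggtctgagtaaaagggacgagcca
Trpv6, chr6:41636356-41636655, minus strand: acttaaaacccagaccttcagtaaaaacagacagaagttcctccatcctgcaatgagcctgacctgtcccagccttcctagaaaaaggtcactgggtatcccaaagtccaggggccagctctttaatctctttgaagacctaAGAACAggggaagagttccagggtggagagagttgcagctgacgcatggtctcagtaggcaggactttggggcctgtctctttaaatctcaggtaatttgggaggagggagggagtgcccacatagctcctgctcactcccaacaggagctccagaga
Scnn1g, chr7:121734229-121734528, plus strand: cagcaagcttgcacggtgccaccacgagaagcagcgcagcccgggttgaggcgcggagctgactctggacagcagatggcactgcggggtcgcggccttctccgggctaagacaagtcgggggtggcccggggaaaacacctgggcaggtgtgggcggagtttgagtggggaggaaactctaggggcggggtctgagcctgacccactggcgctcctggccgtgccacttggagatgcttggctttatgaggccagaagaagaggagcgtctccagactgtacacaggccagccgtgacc
Scnn1b, chr7:121864788-121865087, plus strand: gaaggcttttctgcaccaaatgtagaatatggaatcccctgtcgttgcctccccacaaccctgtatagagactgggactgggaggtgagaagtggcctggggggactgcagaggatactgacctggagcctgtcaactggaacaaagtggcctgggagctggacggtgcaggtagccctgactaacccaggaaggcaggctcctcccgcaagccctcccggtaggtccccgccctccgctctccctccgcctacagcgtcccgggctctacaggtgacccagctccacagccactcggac

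The Cftr window held 31 CG dinucleotides and the Trpv6 window 1, against a median of 7 over 32851 promoter windows. The Scnn1g window held 18 and the Scnn1b window 10. Cftr had 1 CCAAT match and Trpv6 had 1 androgen receptor half-site match, while the ENaC windows had none of the 3 motifs. Of the windows not shown, the first Clcn5 start had 1 half-site match, the second had 1 TATA box match and Ano1 had none. Over all promoter windows, 37.4% held a CCAAT box, 13.6% a TATA box and 19.0% an androgen receptor half-site on either strand. A match describes the letters and does not show that a factor binds there.

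Cftr was a gene of the proximal tract. At 3 months its level on the common scale was 236, 232, 217 and 175 CPM in the initial segment libraries, 84.96 ± 5.52 CPM (SD, n = 4) in the testis, 70.7 ± 9.85 CPM in the efferent ductules and 19.1 ± 5.80 CPM in the caput. It then dropped to 1.73 ± 0.242 CPM in the corpus, 1.82 ± 0.479 CPM in the cauda, with the vas deferens lowest at 1.02 ± 0.188 CPM. Every initial segment library was thus above every library of another region, and testis and efferent ductules overlapped, as did cauda and corpus. In the edgeR quasi-likelihood fit of the 28 libraries of this age, Cftr was 3.14-fold higher in the initial segment than in the efferent ductules (log2 difference 1.65 ± 0.13 SE, adjusted p = 6.67e-12). It was 10.5-fold lower in the caput than in the initial segment (adjusted p = 2.93e-17) and 11.8-fold lower again in the corpus (adjusted p = 2.89e-16).

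At 21 months the order of the 7 regions for Cftr was the same. The initial segment held 161, 170, 175 and 180 CPM and the vas deferens 0.794 ± 0.304 CPM. The step from testis to efferent ductules was -0.95 ± 0.19 in log2 at this age (edgeR adjusted p = 6.10e-05) and -0.22 ± 0.13 at 3 months (adjusted p = 0.117). The step at 3 months depended on the scaling: it was -0.63 with DESeq2's size factors (adjusted p = 7.91e-05), 0.09 with library size alone (adjusted p = 0.733) and -0.33 (adjusted p = 0.0196) without the 3 libraries that stand apart at this age, replicate 3 of the cauda and of the efferent ductules and replicate 2 of the caput.

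The alpha subunit Scnn1a was the most abundant ENaC transcript in every duct. At 3 months the efferent ductule libraries held 170, 188, 155 and 163 CPM, above every library of the other regions. The initial segment, caput, corpus and cauda held 78.2 ± 5.57, 77.9 ± 15.4, 63.5 ± 7.12 and 88.9 ± 20.6 CPM (SD, n = 4), and neighbours in this order of levels overlapped. The vas deferens held 8.37 ± 1.21 CPM and the testis 0.547 ± 0.0891 CPM, or 8 to 12 counts per library. In the edgeR fit Scnn1a was 317-fold higher in the efferent ductules than in the testis (log2 difference 8.31 ± 0.23 SE, adjusted p = 7.06e-23), 2.11-fold lower in the initial segment than in the efferent ductules (adjusted p = 5.03e-07) and 9.58-fold lower in the vas deferens than in the cauda (adjusted p = 1.15e-15). The small steps within the epididymis were less secure. Corpus against caput was -0.39 in log2 (adjusted p = 0.0442), but was called in only 3 of 13 alternatives, with -0.24 (adjusted p = 0.138) without the same 3 libraries of 3 months. Cauda against corpus was 0.41 (adjusted p = 0.0440) and was called in 6 of 13 alternatives, with 0.39 by DESeq2 (adjusted p = 0.0809) and 0.63 (adjusted p = 0.000161) without these libraries. The alternatives counted for this and other steps include an added 4-fold minimum.

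The beta subunit Scnn1b had its highest level in the efferent ductules too, with 9.13, 8.70, 11.2 and 8.97 CPM at 3 months, above all libraries of other regions. It was low elsewhere, at 2.63 ± 0.585 CPM in the vas deferens, 1.95 ± 0.341 CPM in the initial segment, 1.49 ± 0.758 CPM in the cauda and under 1 CPM on average in corpus, testis and caput, and all neighbours in this order overlapped. The efferent ductules were 23.6-fold above the testis (log2 difference 4.56 ± 0.39 SE, edgeR adjusted p = 9.34e-12), the initial segment 4.69-fold below the efferent ductules (adjusted p = 1.08e-06) and the caput 4.62-fold below the initial segment (adjusted p = 0.000226). The last step rests on 24 counts in all in the caput. It was called in 13 of 13 alternatives, but its size ran from -2.885 to -1.97 in log2. The vas deferens was 1.97-fold above the cauda (adjusted p = 0.0259) and called in 9 of 13 alternatives, but 0.58 in log2 (adjusted p = 0.184) without the same 3 libraries of 3 months, and the 4 cauda libraries held between 13 and 37 counts.

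The gamma subunit Scnn1g followed another course. At 3 months the vas deferens libraries held 1.96, 2.25, 2.42 and 1.46 CPM, the cauda 1.45 ± 0.302 CPM and the efferent ductules 1.43 ± 0.204 CPM. These 3 regions overlapped in pairs of neighbours, and the corpus was below them at 0.808 ± 0.195 CPM. The initial segment held 0, 1, 0 and 5 counts and the testis 2, 0, 2 and 1 counts, so that Scnn1g was at or near the limit of detection there. The rise from caput to corpus was 3.74-fold (log2 difference 1.90 ± 0.50 SE, edgeR adjusted p = 0.00328). The steps from corpus to cauda and from cauda to vas deferens were not past the threshold at 3 months, and corpus and vas deferens, whose libraries did not overlap, were not compared directly. At 21 months the called steps of Scnn1g along the epididymis were others, from initial segment to caput (3.14 ± 0.88 in log2, 2 against 26 counts in all, adjusted p = 0.00694) and from corpus to cauda (1.65 ± 0.48, adjusted p = 0.00882). Over 13 alternatives the first ran from 2.49 to 3.76 and was called in 12, and the second ran from 1.11 to 2.13 and was called in 11. Caput to corpus was 0.31 ± 0.55 (adjusted p = 0.749) at this age, and the difference between the ages in these steps was not tested.

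Measured per kilobase of exon, the subunit transcripts were far from equal. In the efferent ductules at 3 months Scnn1a stood at 40.9 ± 3.43, Scnn1b at 3.61 ± 0.440 and Scnn1g at 0.477 ± 0.0683 CPM per kilobase (SD, n = 4). As a geometric mean of the ratios within libraries, Scnn1a was 11.3 times Scnn1b and 84.5 times Scnn1g in this region, and Scnn1b was 7.47 times Scnn1g. In the cauda Scnn1a was 40.6 times Scnn1b and 43.3 times Scnn1g, while Scnn1b and Scnn1g were near one another, with a ratio of 1.07. Among the ducts with enough counts for these ratios, the subunits were closest in the vas deferens, with Scnn1a at 2.04 times Scnn1b and 2.99 times Scnn1g. Per kilobase, Cftr exceeded Scnn1a 1.45 times in the initial segment, whereas Scnn1a exceeded Cftr 4.51 times in the efferent ductules, 90.4 times in the cauda and 15.2 times in the vas deferens. In the testis Cftr stood at 10.9 and Scnn1a at 0.132 CPM per kilobase. These within-library ratios need no scaling between libraries, but exon length stands for transcript length and the isoforms used are not known.

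**Figure D1:**
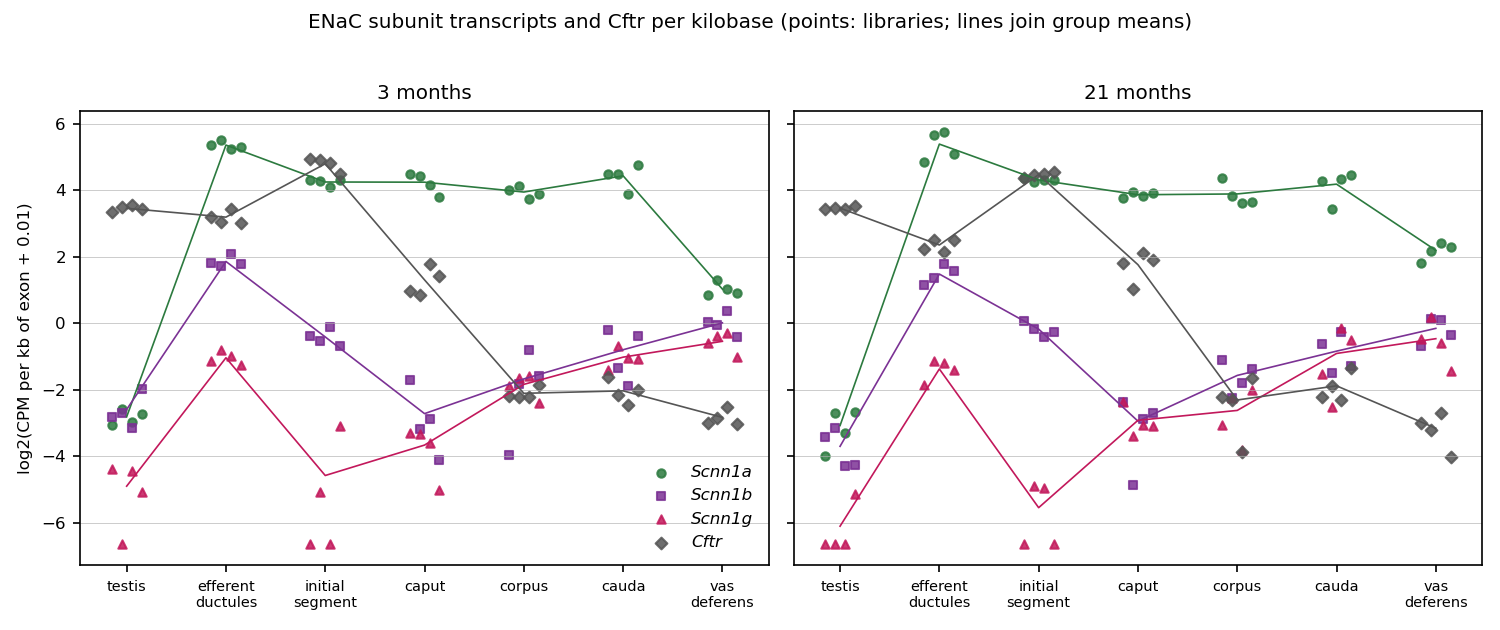
Transcripts of the ENaC subunits and Cftr in 7 regions at 3 months (left) and 21 months (right), as log2 of CPM per kilobase of exon plus 0.01, with 1 point per library and lines joining the group means. Scnn1a lies above Scnn1b and Scnn1g in each duct, the gap is smallest in the vas deferens, and Cftr falls between the initial segment and the corpus at both ages; points at the bottom are libraries with 0 counts.

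Clcn5 rose along the epididymis. At 3 months its level was 17.2 ± 0.684 CPM in the testis, 38.7 ± 3.23 CPM in the efferent ductules, 163 ± 59.9 CPM in the initial segment, 277 ± 42.4 CPM in the caput, 546 ± 26.8 CPM in the corpus and 696 ± 66.2 CPM in the cauda (SD, n = 4). It was 39.8 ± 10.3 CPM in the vas deferens. The initial segment libraries ranged widely, at 101, 180, 133 and 239 CPM, and overlapped with the caput. The edgeR steps were 2.32-fold into the efferent ductules (adjusted p = 3.55e-07), 4.35-fold into the initial segment (adjusted p = 1.40e-11), 1.80-fold into the caput (adjusted p = 0.000211) and 1.86-fold into the corpus (adjusted p = 7.50e-05). The corpus and cauda did not overlap, but their difference of 0.28 ± 0.17 in log2 missed the threshold (adjusted p = 0.242). From cauda to vas deferens Clcn5 was 15.9-fold lower (log2 difference -3.99 ± 0.19 SE, adjusted p = 1.49e-16).

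At 21 months the order of regions for Clcn5 was unchanged, but caput and corpus lay together, at 384 ± 23.5 and 398 ± 33.9 CPM on the common scale, with a log2 difference of 0.03 ± 0.18 (edgeR adjusted p = 0.998). The step from testis to efferent ductules was 0.68 ± 0.19 in log2 (adjusted p = 0.00199) at this age. It was called in 6 of 13 alternatives only, and missed the threshold, among others, without replicate 2 of the cauda and replicates 2 and 3 of the efferent ductules at 21 months, which stand apart (0.49, adjusted p = 0.0670) and with DESeq2's size factors (0.24, adjusted p = 0.248).

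Trpv6 was nearly absent from the first regions of the tract. At 3 months it had 3 to 9 counts per library in the testis and 1 to 6 in the efferent ductules, then 6.38 ± 0.468 CPM in the initial segment, 69.5 ± 12.5 CPM in the caput, 160 ± 7.38 CPM in the corpus and 283 ± 65.5 CPM in the cauda (SD, n = 4). The vas deferens returned to 67.3 ± 8.73 CPM, which overlapped with the caput. The cauda libraries held 319, 315, 185 and 313 CPM, the low value being that of the library with many fibroblast transcripts. By edgeR Trpv6 was 43.1-fold higher in the initial segment than in the efferent ductules (log2 difference 5.43 ± 0.30 SE, adjusted p = 1.24e-15), 11.6-fold higher again in the caput (adjusted p = 2.83e-16), 2.16-fold higher in the corpus (adjusted p = 2.42e-07) and 1.68-fold higher in the cauda (adjusted p = 0.000136). It was 3.79-fold lower in the vas deferens than in the cauda (adjusted p = 5.41e-12). The step into the initial segment rests on 11 counts in all in the efferent ductules, and its size ran from 5.05 to 6.21 in log2 over 13 alternatives. In the efferent ductules at 21 months, the libraries of replicates 2 and 3 held 10 and 23 counts of Trpv6, and the other two held 0, where 3 counts would give 0.263 and 0.273 CPM. The libraries with Trpv6 counts were the ones with caput marker transcripts. Their part in the Trpv6 value was not tested.

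Ano1 was present in all regions and alternated between high and low along the duct. At 3 months it stood at 47.3 ± 4.02 CPM in the testis, 170 ± 11.8 CPM in the efferent ductules, 156 ± 20.6 CPM in the initial segment, 310 ± 52.5 CPM in the caput, 77.9 ± 10.05 CPM in the corpus, 547 ± 127 CPM in the cauda, ending at 233 ± 21.0 CPM in the vas deferens (SD, n = 4). The low corpus lay between higher neighbours in every library: the corpus held 80.8, 83.9, 83.8 and 62.9 CPM, and the caput and cauda held at least 271 and 360 CPM. The fall into the corpus was 4.25-fold (log2 difference -2.09 ± 0.14 SE, edgeR adjusted p = 4.08e-13) and the rise into the cauda was 6.68-fold (2.74 ± 0.15, adjusted p = 5.23e-15). At 21 months the same steps were 4.36-fold (adjusted p = 1.20e-12) and 7.57-fold (adjusted p = 7.20e-15). The summed markers of interstitial cells of Cajal were also lowest in the corpus among the ducts, at 39.4 to 45.4 CPM at 3 months against 54.5 to 152 CPM in the other ducts, and smooth muscle markers summed to 639 to 969 CPM in the corpus, 1128 to 1456 CPM in the caput and 4406 to 6876 CPM in the cauda. The smooth muscle sums did not follow Ano1 everywhere. They were 2679 to 3154 CPM in the initial segment, above the caput, and highest in the vas deferens at 12393 to 12804 CPM. The interstitial cell of Cajal sums did not follow Ano1 everywhere either. At 3 months they averaged 138 CPM in the initial segment and 113 CPM in the efferent ductules. They averaged 65.5 CPM in the caput and 80.9 CPM in the cauda, where Ano1 was higher. Epithelium markers were highest in the corpus at this age, at 1741 to 2168 CPM, where Ano1 was lowest among the ducts. The part of these markers in the Ano1 pattern was not tested. In such bulk samples a smaller share of expressing cells and less RNA per cell cannot be told apart.

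**Figure D2:**
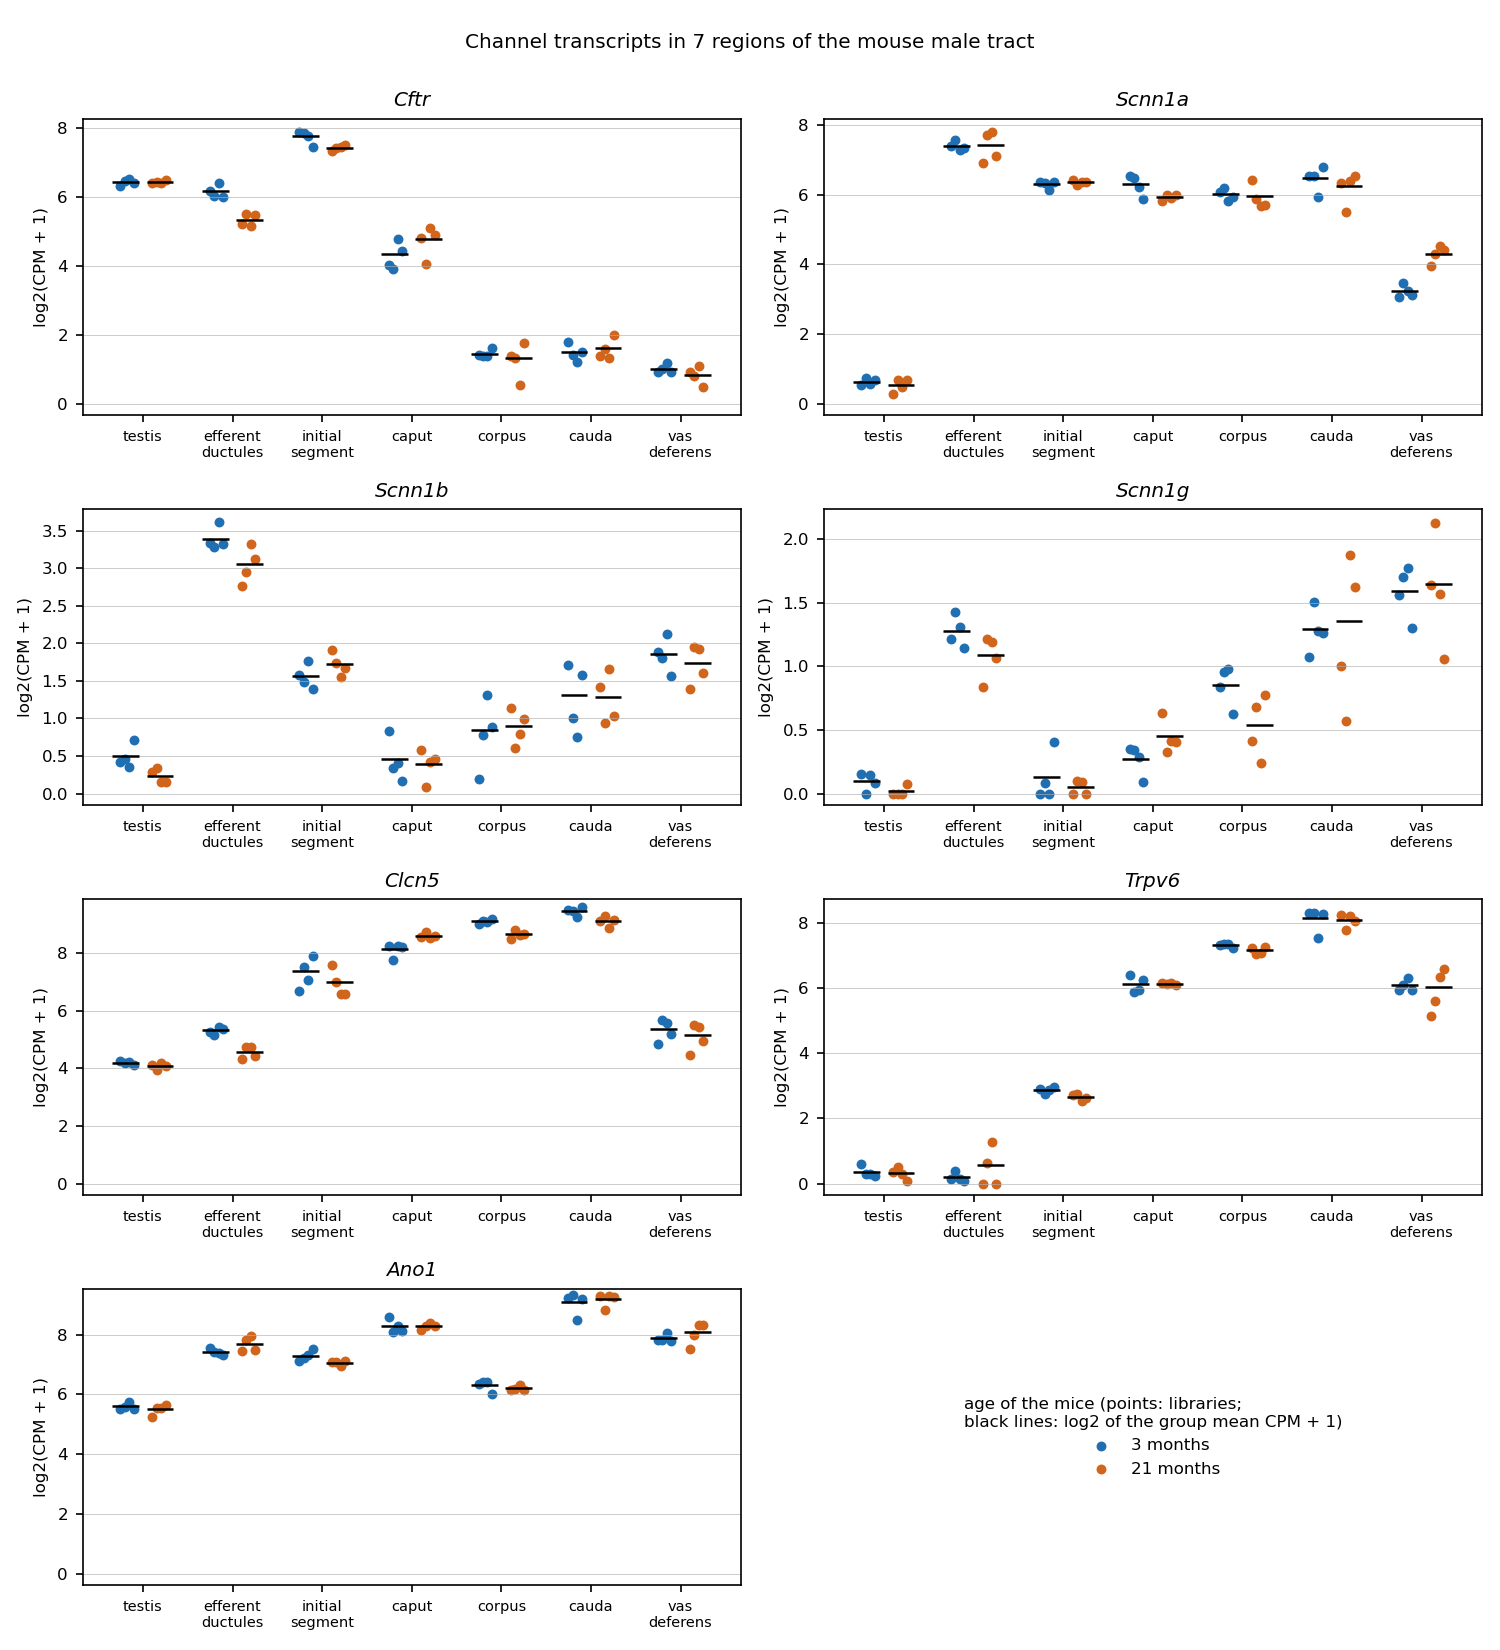
Level of each channel transcript as log2(CPM + 1) on the scale shared by all 56 libraries, with 1 point per library at 3 months (blue) and 21 months (orange) and black lines at the log2 of the group mean CPM plus 1. Cftr is highest in the initial segment, Scnn1a and Scnn1b in the efferent ductules, Clcn5, Trpv6 and Ano1 in the cauda, and Scnn1g in the vas deferens, by the group means of both ages.

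Over the 6 steps between neighbouring regions, 31 of 42 steps of the 7 genes were called at 3 months, 18 of them to a higher level and 13 to a lower one, and 33 of 42 at 21 months, 18 higher and 15 lower. A step is called here at an adjusted p under 0.05. Of these, 27 were called at both ages, all in the same direction. Such calls were common among all genes, and the members' counts are to be read against that background. At 3 months 5 of 7 members were called from testis to efferent ductules against 75.6% of all genes tested, 6 from efferent ductules to initial segment against 43.4%, 5 from initial segment to caput against 27.8%, 6 from caput to corpus against 33.5%, 3 from corpus to cauda against 24.4% and 6 from cauda to vas deferens against 36.4%. At 21 months the counts were 6, 7, 7, 4, 3 and 6 of 7, against 74.3%, 44.6%, 29.7%, 32.3%, 26.9% and 35.1% of all genes. The step from testis to efferent ductules was therefore near its background, and corpus to cauda changed fewest members.

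The order of the 7 regional means was the same at both ages for 4 genes, Cftr, Scnn1g, Clcn5 and Ano1. For Scnn1g only 2 of 6 neighbours in this order were without overlap at each age. Its lowest ranks, initial segment and testis, rest on 6 and 5 counts in all at 3 months and 2 and 1 at 21 months. Scnn1b and Trpv6 kept 5 of 7 ranks and Scnn1a kept 3 of 7. Across the 14 group means of log2(CPM + 1), Clcn5 and Trpv6 had the highest correlation between members, with Pearson's r = 0.81, and Cftr and Trpv6 the lowest, with r = -0.82. The ENaC subunits correlated less with one another, at r = 0.55 for Scnn1b and Scnn1g, 0.51 for Scnn1a and Scnn1b and 0.27 for Scnn1a and Scnn1g. The groups share the mice of an age and the scaling, so these values describe the profiles and were not tested.

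Age was compared within each region, 21 months against 3 months, with n = 4 libraries each. Of the 47 pairs of member and region that could be tested, 5 were called at an adjusted p under 0.05: Cftr fell in the efferent ductules, Clcn5 fell in the efferent ductules and the corpus and rose in the caput, and Scnn1a rose in the vas deferens. Scnn1g could not be tested in the testis and the initial segment, where its total was under 10 counts. The background differed widely. In the efferent ductules 2 of 7 members were called against 6.99% of all genes, in the caput 1 of 7 against 8.14%, in the corpus 1 of 7 against 2.97% and in the vas deferens 1 of 7 against 19.9%. The efferent ductule background depends on the libraries used, as far more of all genes were called there without the 2 libraries that hold caput marker transcripts. No member was called in the testis, initial segment or cauda, where 0.563%, 6.36% and 0.128% of all genes were. At an unadjusted p under 0.05, 1 member passed in the testis (Scnn1b), 2 in the initial segment (Cftr, Scnn1a) and 1 in the cauda (Clcn5) by edgeR, and DESeq2 called 0 members in these 3 regions, giving no adjusted p for the low Scnn1a, Scnn1b and Trpv6 in the testis.

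In 10 of the 47 tested pairs every library of one age lay above every library of the other, against 13.7% of all tests over the 7 regions. By region, the share of all genes without overlap was highest for the vas deferens at 25% and lowest for the testis at 6.31%. It was 17.8% for efferent ductules, 12.4% for initial segment, 16.9% for caput, 10.2% for corpus and 8.46% for cauda. Beside the 5 called ones these were Scnn1b in the testis, with 5 to 11 counts at 3 months and 2 to 5 at 21 months, Ano1 in the efferent ductules, Scnn1a in the initial segment, Trpv6 in the corpus and Clcn5 in the cauda. Scnn1a in the initial segment gave 0.20 ± 0.07 in log2 (adjusted p = 0.114) and Trpv6 in the corpus -0.18 ± 0.08 (adjusted p = 0.267), neither past the threshold. Cftr in the testis was nearly level, at 82.0 ± 5.34 and 82.2 ± 2.87 CPM, with a log2 difference of 0.00 ± 0.06 (adjusted p = 0.991).

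**Figure D3:**
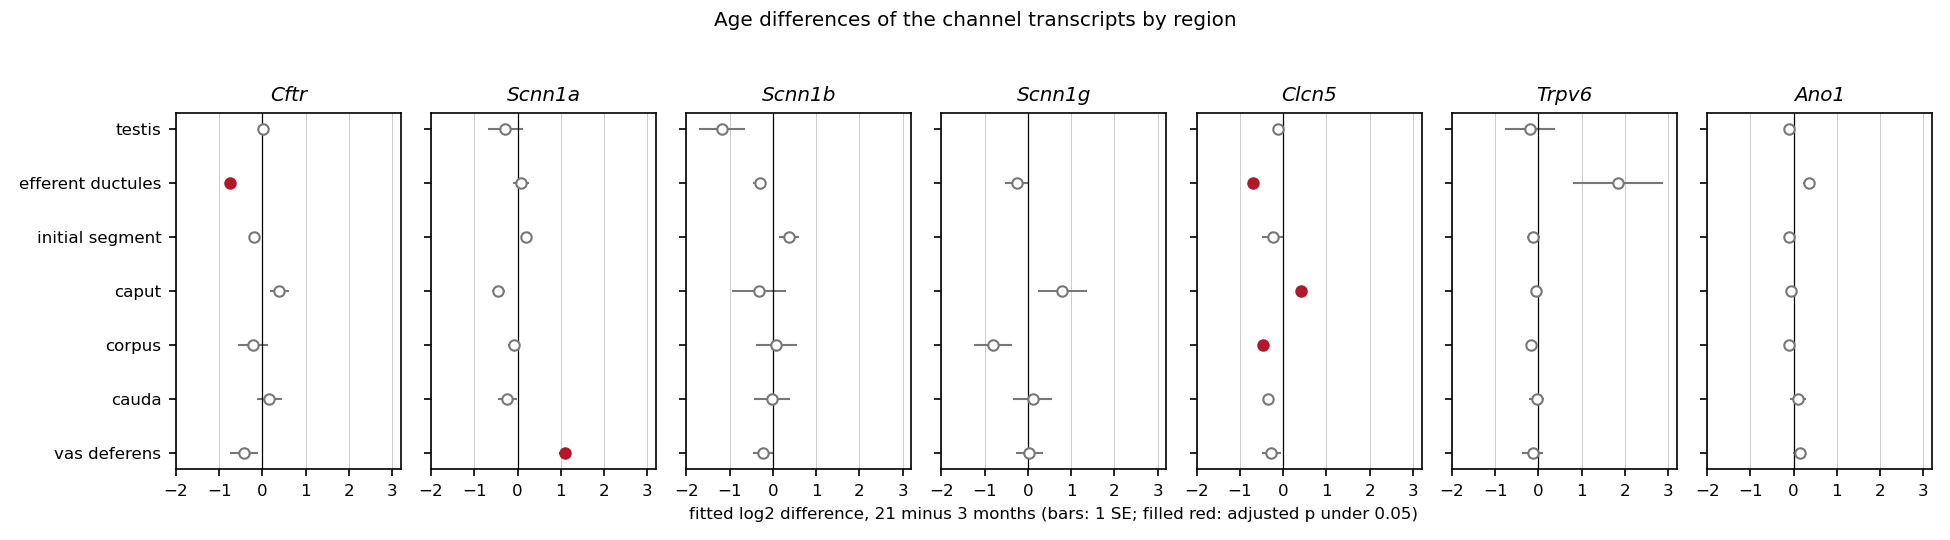
Fitted log2 difference between 21 and 3 months for each member (panels) in each region (rows), with bars of 1 standard error, where filled red points have an adjusted p under 0.05 and open points do not. The 5 red points are Cftr and Clcn5 in the efferent ductules, Clcn5 in the caput (to the right of 0) and corpus, and Scnn1a in the vas deferens; Scnn1g has no point in the testis and initial segment.

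In the efferent ductules, Cftr held 81.2, 73.5, 83.2 and 73.5 CPM at 3 months and 44.6, 49.1, 39.4 and 51.3 CPM at 21 months, on the scale of the region. All young libraries were above all old ones. The fitted decrease was 1.69-fold (log2 difference -0.76 ± 0.11 SE, edgeR adjusted p = 0.00717). Clcn5 held 42.8, 40.1, 41.9 and 46.5 CPM at 3 months and 23.1, 28.8, 29.7 and 24.2 CPM at 21 months, again without overlap, a 1.61-fold decrease (-0.69 ± 0.11, adjusted p = 0.0101). Both were called under each of the 17 alternatives run, with log2 differences between -1.09 and -0.68 for Cftr and between -1.02 and -0.63 for Clcn5. Without the libraries of replicates 2 and 3 at 21 months, which hold caput marker transcripts, the values were -0.68 (adjusted p = 0.000498) and -0.84 (adjusted p = 0.000122).

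The efferent ductule libraries also differed by age in their markers. Epithelium markers summed to 1174 to 1265 CPM at 3 months and 1207 to 1697 CPM at 21 months, so they overlapped, and relative to this sum Cftr was lower by -1.04 and Clcn5 by -0.98 in log2, without overlap of the libraries. Fibroblast and matrix markers went from 2636 to 3686 CPM down to 1361 to 1547 CPM, adipocyte markers from 527 to 786 CPM down to 169 to 455 CPM, and leukocyte markers from 102 to 121 CPM up to 143 to 174 CPM. The efferent ductule markers themselves summed to 3940 to 4507 CPM at 3 months and 3211 to 3524 CPM at 21 months. Of their 5 genes, 1 was called lower and 0 higher, and the list median was 0.10 in log2. Clear and narrow cell markers went from 44.5 to 53.4 CPM up to 55.1 to 77.2 CPM, ciliated cell markers from 1119 to 1256 up to 1303 to 1418 CPM, and interstitial cell of Cajal markers from 112 to 114 down to 71.5 to 104 CPM. Markers of other regions were higher as well, those of the initial segment at 575 to 674 and then 744 to 995 CPM and those of the cauda at 73.3 to 92.2 and then 121 to 175 CPM. In all, 9 of 18 marker lists did not overlap between the ages here, 5 of them higher and 4 lower at 21 months. Gm42418 took 1.27% to 3.29% of the counts at 3 months and 4.93% to 22.2% at 21 months, also without overlap. Their part in the differences of Cftr and Clcn5 was not tested. Ano1 held 211, 197, 162 and 184 CPM at 3 months and 215, 252, 284 and 212 CPM at 21 months, which did not overlap, but the difference of 0.35 ± 0.13 in log2 missed the threshold (edgeR adjusted p = 0.117, DESeq2 adjusted p = 0.0307). Scnn1a, the most abundant ENaC subunit there, gave 0.09 ± 0.18 (edgeR adjusted p = 0.810). Trpv6, with the counts given above, had a fitted difference of 1.84 ± 1.05 (adjusted p = 0.305).

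Clcn5 moved in opposite directions in adjoining parts of the epididymis. In the caput it held 277, 242, 293 and 281 CPM at 3 months and 354, 409, 341 and 361 CPM at 21 months, a 1.34-fold increase (log2 difference 0.42 ± 0.10 SE, edgeR adjusted p = 0.0272). In the corpus it held 429, 443, 416 and 488 CPM at 3 months and 278, 361, 340 and 305 CPM at 21 months, a 1.38-fold decrease (-0.47 ± 0.10, adjusted p = 0.0151). The ages did not overlap in either region. These calls were near the threshold. The caput call was lost without any one of the 4 libraries at 21 months (adjusted p = 0.0641 to 0.1002, log2 difference 0.36 to 0.45) and with library sizes alone (0.61, adjusted p = 0.409), and the corpus call with library sizes alone (-0.63, adjusted p = 0.108) and without replicate 1 or 4 at 21 months (-0.40, adjusted p = 0.0512, and -0.43, adjusted p = 0.0727). In the fit of all 56 libraries both had an adjusted p over the threshold, 0.134 and 0.355, and neither reached the 1.5-fold of the study's rule. The clear and narrow cell markers, which mark the proton-secreting cells of the epididymis, summed to 144 to 159 CPM at 3 months and 152 to 175 CPM at 21 months in the caput, and to 241 to 262 CPM and 247 to 307 CPM in the corpus, so the ages overlapped in both. Fibroblast and matrix markers summed to 724 to 1576 and then 495 to 559 CPM in the caput, and to 1524 to 3099 and then 699 to 886 CPM in the corpus. Smooth muscle markers in the caput went from 1128 to 1456 down to 810 to 949 CPM, with 6 of 8 genes called lower, and leukocyte markers from 40.8 to 55.2 up to 76.3 to 84.7 CPM, with 4 of 9 called higher. Also lower without overlap in the caput were the Sertoli cell list (14319 to 17444 and then 10039 to 12638 CPM) and germ cell markers (83.8 to 117 and then 69.4 to 75.2 CPM). In the corpus these were caput markers (9140 to 15676 and then 6934 to 8795 CPM) and interstitial cell of Cajal markers (39.4 to 45.4 and then 29.5 to 35.6 CPM). In all, 5 of 18 marker lists did not overlap between the ages in the caput and 3 of 18 in the corpus. Their part in the Clcn5 differences was not tested.

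In the cauda Clcn5 held 657, 632, 604 and 690 CPM at 3 months and 525, 568, 436 and 499 CPM at 21 months, which did not overlap, but was not called (-0.35 ± 0.13 in log2, edgeR adjusted p = 0.369). Without the 2 cauda libraries that stand apart the difference was -0.44 with an adjusted p of 0.00120, and the number of all genes called in this region went from 33 to 1168. The clear and narrow cell markers of the cauda summed to 150.5 to 288 CPM at 3 months and 115 to 140 CPM at 21 months, also without overlap. In all, 7 of 18 marker lists did not overlap between the ages in the cauda. Lower at 21 months were also fibroblast and matrix (2189 to 9276 and then 1013 to 1170 CPM), smooth muscle (4406 to 6876 and then 3024 to 4394 CPM), skeletal muscle (98.02 to 159 and then 27.8 to 70.7 CPM) and Leydig cell markers (8.39 to 11.8 and then 5.02 to 6.07 CPM). Higher were the markers of the initial segment (58.0 to 137 and then 139 to 269.8 CPM) and of the vas deferens (24.0 to 29.5 and then 39.7 to 63.4 CPM). Their part in the Clcn5 values was not tested. Trpv6, Ano1 and Scnn1a gave -0.04 ± 0.18, 0.10 ± 0.18 and -0.24 ± 0.22 in the cauda, with ages overlapping. Their lowest library was at each age the one that stands apart: for Ano1 these were 357 CPM against 526 to 584 CPM at 3 months and 417 CPM against 547 to 604 CPM at 21 months.

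In the vas deferens Scnn1a held 9.14, 12.2, 10.1 and 9.61 CPM at 3 months and 17.7, 21.8, 24.3 and 24.5 CPM at 21 months. The groups were well apart. The increase of 2.15-fold (log2 difference 1.11 ± 0.14 SE, edgeR adjusted p = 0.000855) was the most marked age difference among the called members, and it was called under each of the 16 alternatives run, with log2 differences of 1.05 to 1.197 and adjusted p of at most 0.00588. The beta and gamma subunits gave -0.23 ± 0.23 (adjusted p = 0.528) and 0.03 ± 0.31 (adjusted p = 0.964) in the same libraries. Epithelium markers summed to 1005 to 1176 CPM at 3 months and to 1225 to 1598 CPM at 21 months. Relative to this sum Scnn1a was 0.82 higher in log2 at 21 months, still without overlap between the ages. Smooth muscle markers summed to 12393 to 12804 CPM at 3 months and 12698 to 20850 CPM at 21 months, and fibroblast and matrix markers to 2161 to 2635 and then 993 to 1460 CPM. Vas deferens markers summed to 19981 to 22630 and then 10332 to 17152 CPM, and leukocyte markers to 95.1 to 123 and then 142 to 380 CPM. Of the 5 vas deferens markers, 1 was called lower and 0 higher, with a list median of 0.07 in log2. Cauda markers went from 9.59 to 13.9 up to 26.5 to 84.4 CPM and initial segment markers from 36.4 to 62.3 up to 73.8 to 135 CPM. In all, 6 of 18 marker lists did not overlap between the ages in the vas deferens, 4 of them higher and 2 lower at 21 months. Replicate 4 at 21 months gave the lowest vas deferens and smooth muscle sums and the highest leukocyte sum, and without it the Scnn1a difference was 1.05 (edgeR adjusted p = 0.000466). The part of these markers in the difference was not tested.

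**Figure D4:**
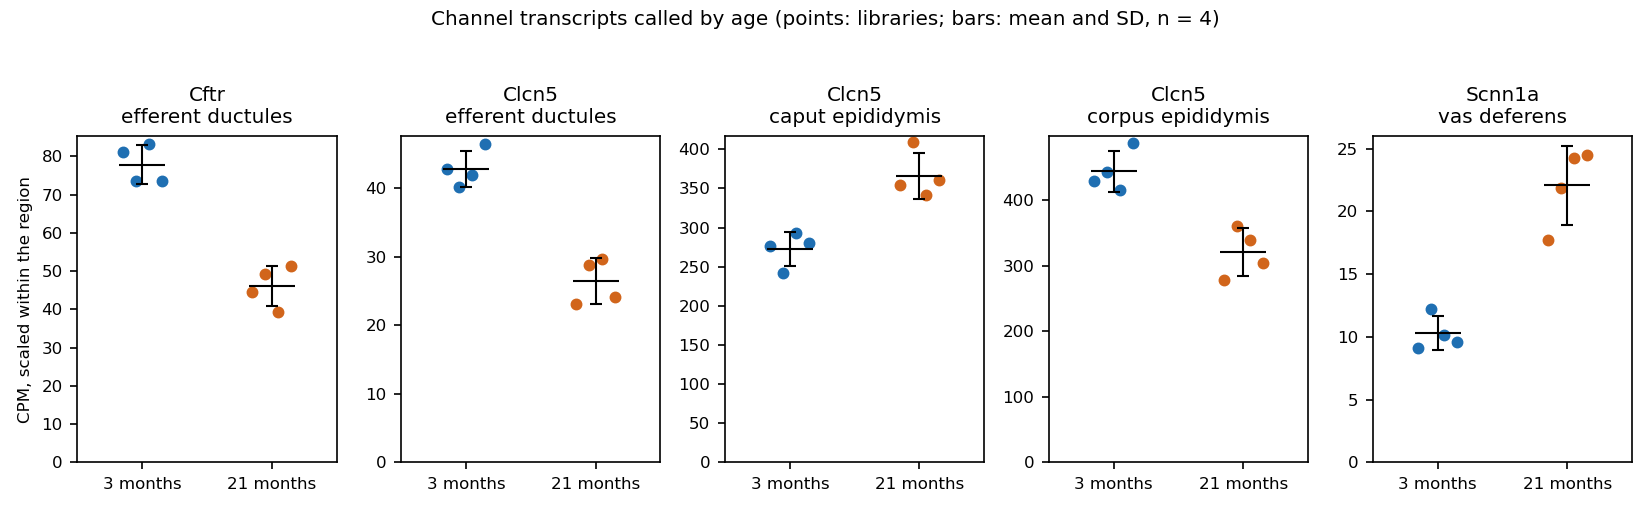
The 5 age differences with an adjusted p under 0.05, as CPM scaled within the region on axes that start at 0, with 1 point per library and bars for the mean and SD (n = 4). In none of the panels do the libraries of 3 months (blue) and 21 months (orange) overlap, and Scnn1a in the vas deferens goes from 10.3 ± 1.35 to 22.1 ± 3.13 CPM.

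Ratios within libraries were compared between the ages for the subunits and Cftr. In the vas deferens Scnn1b to Scnn1a was -1.03 ± 0.36 at 3 months and -2.36 ± 0.26 at 21 months in log2 (SD, n = 4; two-sided exact permutation p = 0.0286) and Scnn1g to Scnn1a was -1.58 ± 0.27 and -2.75 ± 0.78 (exact permutation p = 0.0286). Cftr to Scnn1a was -3.93 ± 0.26 and -5.50 ± 0.70 there, and -2.17 ± 0.29 and -2.99 ± 0.48 in the efferent ductules (exact permutation p = 0.0286 each). This is the smallest p that 4 against 4 libraries can give, 2 of 70 regroupings. After Benjamini-Hochberg adjustment over the 17 ratios and regions with enough counts, the exact permutation p of these 4 was 0.121, so none of the 17 passed the threshold. The ratio of Scnn1b to Scnn1g gave differences of -0.05 in the efferent ductules, 0.16 in the cauda, and for the vas deferens -0.17, with exact permutation p of 0.571, 0.743 and 0.657.

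Whether the age effect differed between regions was tested in one fit of all 56 libraries. It did for 3 of the 7 members, Cftr (edgeR adjusted p = 0.00843), Scnn1a (adjusted p = 0.000467) and Clcn5 (adjusted p = 0.0192), against 20.2% of all genes tested. Scnn1b (adjusted p = 0.633), Scnn1g (0.359), Trpv6 (0.310) and Ano1 (0.329) did not pass. The age effect on Scnn1a in the vas deferens exceeded the mean of the other 6 regions by 1.32 ± 0.21 in log2 (adjusted p = 3.01e-05, where 7.7% of all genes were called). The effect on Clcn5 in the caput was 0.85 ± 0.21 above the others (adjusted p = 0.00535) and that on Cftr in the caput 0.70 ± 0.21 above them (adjusted p = 0.0324), where 6.95% of all genes were called. Within the caput the age difference of Cftr itself was 0.39 ± 0.22 in log2 (edgeR adjusted p = 0.286). The ages overlapped there, at 18.9 ± 5.24 and 24.9 ± 6.75 CPM, and the mean of the others includes the fall of Cftr in the efferent ductules. The effect on Cftr in the efferent ductules was -0.80 ± 0.21 against the others (adjusted p = 0.0194, where 3.76% of all genes were called). The Scnn1a difference was called whichever replicate number was left out. The Cftr difference in the efferent ductules was lost without replicate 1, 3 or 4 or without the testis (adjusted p up to 0.135), the Cftr difference in the caput without any one of the 4 (adjusted p up to 0.398) or with DESeq2's size factors (adjusted p = 0.0539) and the Clcn5 difference without replicate 2 or 4 (adjusted p up to 0.0909).

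The channels work with partner proteins, and 140 genes in 7 lists of regulators and related channels were examined beside them. By age, the edgeR test called 0 of 130 tested genes of these lists in the testis and 0 of 130 in the cauda, where 16 and 23 had an unadjusted p under 0.05 and DESeq2 called 0 and 4. In the efferent ductules 7 were higher and 6 lower of 127 at 21 months, in the initial segment 5 and 4 of 122, in the caput 7 and 2 of 127, in the corpus 3 and 7 of 123 and in the vas deferens 17 and 18 of 129. DESeq2 called 30 genes of these lists in the efferent ductules and 16 in the corpus, against 13 and 10 by edgeR. These were 10.2%, 7.38%, 7.09%, 8.13% and 27.1% of the genes tested in the lists, beside the shares of all genes given above. Over the 7 regions together 6.27% of all tests across all genes were called, the share beside which the counts per list are to be read. The vas deferens, where 19.9% of all genes were called, held 6 of the 14 calls of the ENaC regulators, 8 of 12 of the CFTR regulators, 1 of 12 of the calcium list and 5 of 13 of the endosomal partners. It also held 6 of 11 calls of the potassium channels, 6 of 10 of the chloride channels and 3 of 5 of the sodium and TRP channels. The list medians stayed between -0.26 and 0.40 in log2, beside medians of all genes between -0.04 and 0.02.

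Among the ENaC regulators, 20 genes tested in each region, 9 of 140 tests were called higher at 21 months and 5 lower. Sgk1, the kinase that carries the aldosterone signal to ENaC, rose 1.39-fold in the initial segment (18.5 ± 1.95 to 25.7 ± 4.81 CPM, edgeR adjusted p = 0.0449) and 1.55-fold in the caput (12.99 ± 1.96 to 20.2 ± 3.47 CPM, adjusted p = 0.0259). By level at 3 months the list was led by Nedd4, a ubiquitin ligase, with 1030.0 ± 55.4 CPM in the efferent ductules and 140 ± 6.12 CPM in the testis. Next was Wnk1, a kinase of salt transport, with 905 ± 74.0 CPM in the testis. Of the CFTR regulators, 8 of 139 tests were higher and 4 lower. Vipr1, a receptor that raises cAMP, rose 1.53-fold in the corpus (52.0 ± 7.37 to 79.6 ± 9.79 CPM, adjusted p = 0.00662), and Prkar2b, a regulatory subunit of protein kinase A, fell 1.78-fold in the vas deferens (14.7 ± 2.23 to 8.21 ± 1.80 CPM, adjusted p = 0.00935). Ezr, which ties membrane proteins to actin, had its highest level where Cftr did, with 1150 ± 80.2 CPM in the initial segment.

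The calcium reabsorption list had 5 of 90 tests higher and 7 lower. The sodium and calcium exchanger Slc8a1 fell 1.58-fold in the initial segment (adjusted p = 0.0120), 1.88-fold in the caput (adjusted p = 0.00884) and 1.79-fold in the corpus (17.5 ± 0.148 to 9.85 ± 2.54 CPM, adjusted p = 0.00460). The plasma membrane calcium pump Atp2b4, the most abundant gene of the list at 1305 ± 138 CPM in the young caput, fell 1.32-fold there (adjusted p = 0.0389 by edgeR). Kl, which codes for the klotho protein, fell 1.83-fold in the efferent ductules (143 ± 13.4 to 78.2 ± 9.14 CPM, adjusted p = 0.00539). Ptprn2 rose 5.25-fold in the initial segment (5.90 ± 1.04 to 31.0 ± 8.23 CPM, adjusted p = 4.94e-06) and 2.26-fold in the caput (adjusted p = 0.0208), but it codes for a membrane protein of secretory granules and not for a calcium carrier. The endosomal partners of ClC-5 had 5 of 126 tests higher and 8 lower. Atp6v0d2, a proton pump subunit, rose 13.4-fold in the efferent ductules (0.340 ± 0.222 to 4.56 ± 2.13 CPM, adjusted p = 0.00637) and fell 1.59-fold in the corpus (adjusted p = 0.00662), while Clcn5 fell in both regions. Amn, the partner of cubilin, rose 2.10-fold in the efferent ductules (adjusted p = 0.0133), and Atp6v1a, another proton pump subunit, fell 1.56-fold in the vas deferens (adjusted p = 0.00376 by edgeR). Lrp2, the endocytic receptor megalin, led this list with 2411 ± 159 CPM in the young efferent ductules.

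Among the potassium channels 7 of 75 tests were higher and 4 lower, with 5 higher and 1 lower of 12 in the vas deferens, against 19.9% of all genes. Kcnn4, opened by calcium, rose 3.98-fold there (1.30 ± 0.271 to 5.22 ± 1.06 CPM, edgeR adjusted p = 0.000690) and Kcnq1 3.04-fold (7.62 ± 3.11 to 23.1 ± 6.60 CPM, adjusted p = 0.00401), beside the rise of Scnn1a. Kcnk5 rose 1.51-fold in the corpus (adjusted p = 0.0113). Of the other chloride channels 4 of 201 tests were higher and 6 lower, among them Lrrc8b, a subunit of the volume-regulated anion channel, which fell 1.75-fold in the initial segment (23.9 ± 1.32 to 13.6 ± 3.11 CPM, adjusted p = 0.00348). Of the other sodium and TRP channels 1 of 131 tests was higher and 4 lower, among them the mechanosensitive channel Piezo2, which fell 1.70-fold in the efferent ductules (adjusted p = 0.0343 by edgeR). At 3 months the chloride list also held Clca3a2, with 453 ± 244 CPM in the cauda, and the potassium list Kcnj16, with 413 ± 32.5 CPM in the vas deferens and 0.0279 CPM in the testis.

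Over the 56 libraries, the profile most like that of Cftr among 24955 genes was that of B4galnt4, with Pearson's r = 0.97 of log2(CPM + 1), followed by Pla2g5 and Cxxc5 (both r = 0.94). For Scnn1a the closest were Axin2 (r = 0.98), Rnf43 and Kcnj15 (both r = 0.97), the last a potassium channel. For Scnn1b they were Eps8l2, Sfxn5 and Spns2 (r = 0.93, 0.93 and 0.92), and for Scnn1g Smoc2, Fbln1 and 6530402F18Rik (r = 0.91, 0.91 and 0.90), of which Smoc2 and Fbln1 code for matrix proteins. For Clcn5 they were Dmrt2, Gm12121 and Atp6v1g3 (r = 0.98, 0.97 and 0.97), the last a proton pump subunit in the list of clear and narrow cell markers. For Trpv6 they were Spink8, Tmem238l and Gm28286 (r = 0.98, 0.97 and 0.97), and for Ano1 Unc5b, Amigo1 and Rarg (r = 0.92, 0.90 and 0.89). Libraries of a region lie close together, so these values chiefly describe the regional profile and carry no test.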

How the data were processed

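The 56 libraries were made from total RNA with a stranded kit, and reads were trimmed with cutadapt, aligned with HISAT2 to mm10 (GRCm38) and counted with HTSeq, per the labels and the submitters' processing notes, which give no versions. The authors deposited whole-number read counts per Ensembl gene without normalization. The annotation release, counting mode and strand setting are not given in the sources used here. GENCODE M21 gave a symbol to 53274 of 53379 genes. The 7 members and the gene lists were chosen with earlier results of these data known.

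Counts were scaled by TMM and tested with the quasi-likelihood test of edgeR 4.0.16 in R 4.3.3 on genes that reached 10 counts over the libraries fitted, with Benjamini-Hochberg adjustment over all genes. The p-values in the text without another name come from this test. Age was fitted on the 8 libraries of a region, neighbouring regions on the 28 libraries of an age, and the difference of age effects on all 56. Alternatives after the study's cutoffs were an unadjusted p with a 1.5-fold minimum for age, where the study does not state an adjustment, and a 4-fold minimum beside the adjusted p for steps between neighbouring regions, whereas the study set its 4-fold minimum against all other regions. Subunit ratios were computed within a library on counts per exon length after adding 0.5 counts, where both genes averaged at least 10 counts, and tested by exact permutation (scipy 1.17.1). The edgeR age fits and the step from initial segment to caput at 3 months were also run on simulated counts. These runs recovered 40.2% to 56.2% of 1.5-fold changes and 99% to 100% of 3-fold changes. The test of age effects between regions, DESeq2 and the ratio tests were not run on simulated counts.

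Named genes of the lists were, per region and direction, the 2 with the largest called fold change and a mean of at least 1 CPM, and per list the 2 with the highest mean CPM in any region at 3 months. Similar profiles were the 3 highest Pearson correlations of log2(CPM + 1) among genes with a mean of at least 1 CPM in a group. Clca3a2 and its close copies may share reads. Alternatives were DESeq2 1.42.0, its size factors, library size alone, filterByExpr, no filter, all 56 libraries, the replicate number as a block, and each library or replicate number left out. Leaving out libraries that stand apart was added after seeing the data.

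The replicate number was examined as a mark of the mouse. All 4 correlations of same-numbered deviations exceeded 0.1 in 1 of 19 pairs of groups, the corpus and cauda at 3 months, and ranged from -0.296 to 0.317 over all of them. The labels do not tie a number to a mouse. No 2 libraries were identical. All columns were matched to a sample. Errors of levels and of ratios are the SD between libraries of one group. Those of fitted log2 differences are standard errors, derived from the F statistic of the edgeR fit.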

Additional observations from a re-analysis of the deposited data

Results flagged for a closer look

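In 11 of the 98 sets of 4 libraries (7 genes in 14 groups), 1 library lay farther from the others than Dixon's critical ratio of gap to range allows, which chance exceeds in about 1 of 20 sets. Values are CPM on the common scale. In the cauda, Trpv6 was low in replicate 3 at 3 months, at 184.8 against 312.7 to 319.4 CPM, and Ano1 was low in replicate 2 at 21 months, at 450.3 against 610.0 to 628.8 CPM. These are the 2 cauda libraries with low epithelium markers. Clcn5 was low in the caput in replicate 2 at 3 months, the library with 49.7% of its counts on Gm42418, at 213.2 against 293.5 to 301.0 CPM. Scnn1b was high in the efferent ductules in replicate 3 at 3 months, at 11.2 against 8.70 to 9.13 CPM. In the corpus at 3 months replicate 4 was high for Cftr, at 2.09 against 1.58 to 1.64 CPM, and low for Ano1, at 62.9 against 80.8 to 83.9 CPM, and at 21 months replicate 3 was high for Ano1, at 79.0 against 69.1 to 70.7 CPM. Scnn1a was low in the initial segment in replicate 3 at 3 months, at 69.97 against 79.97 to 81.97 CPM, and Ano1 was high in the vas deferens in replicate 3 at 3 months, at 264.6 against 221.0 to 223.8 CPM. In the testis, Trpv6 in replicate 1 at 3 months stood at 0.515 against 0.176 to 0.218 CPM, and Scnn1g in replicate 4 at 21 months at 0.0551 CPM, which is 1 count, against 0 in the others.

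The age effect of a region differed from the mean of the other 6 regions in 4 cases by the edgeR test of that difference. These were Cftr in the efferent ductules (-0.80 in log2, adjusted p = 0.0194), Cftr in the caput (0.70, adjusted p = 0.0324), Clcn5 in the caput (0.85, adjusted p = 0.00535) and Scnn1a in the vas deferens (1.32, adjusted p = 3.01e-05). Under the 8 alternatives they were called in 4, 3, 6 and 8, in this order. The age difference of Cftr within the caput was itself not called (0.39 in log2, edgeR adjusted p = 0.286).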

How the results depend on the processing

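No result changed direction among those called, and of 1891 single values for the members under the alternatives, 1765 stayed on their side of the threshold, 99 fell below it and 27 passed it. Of the 5 age calls, 3 held when all 56 libraries shared one fit. With an added 4-fold minimum, 15 of the member steps between neighbouring regions held at 3 months and 16 at 21 months. The tests of a regional difference in the age effect called 1 to 2 members without one replicate number.

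Counts of all genes moved more. For age in the testis, 169 genes were called, and 815 under the study's 1.5-fold rule with an unadjusted p, 486 without a filter, 10 in one fit of all libraries and 59 to 192 without a library. For the efferent ductules it was 1813, and 3331 under the study's rule, 5288 with library size alone, 3557 by DESeq2 and 3037 in one fit. It was 6744 without the 2 libraries with caput marker transcripts and 316 to 2159 without a library. The initial segment gave 1586, 2859 under the study's rule and 990 to 1690 without a library. The caput gave 2062, 3351 under the study's rule, 889 with library size alone and 616 to 5201 without a library. The corpus gave 738, 1703 under the study's rule, 1626 without a filter, 1211 by DESeq2, 314 in one fit and 395 to 1132 without a library. The cauda gave 33, 2136 under the study's rule, 144 without a filter, 491 by DESeq2, 1286 in one fit, 1168 without the 2 libraries that stand apart and 0 to 87 without a library. The vas deferens gave 5010 and 3056 to 5316 without a library. The causes were not tested.

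With an added 4-fold minimum the steps from testis to vas deferens called 16867, 5395, 2706, 3732, 1962 and 4056 genes at 3 months and 16936, 6042, 3572, 3471, 2154 and 3939 at 21 months. With the replicate number as a block, the genes called by age numbered 276 for the testis, 632 for the efferent ductules, 1227 for the corpus, and 91 for the cauda; for corpus and cauda at 3 months, the only groups whose numbers behaved as pairs, 8259 against 8423 genes. The block left 5 age calls, 31 steps at 3 months and 33 at 21 months among the members. At the depth of these libraries Scnn1g could not be compared between ages in the testis and the initial segment.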
